A study of Mus musculus with 93 samples.

Results

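The genes described here carry glucose into the cell and break it down to pyruvate, lactate and mitochondrial acetyl units. They comprise 33 genes out of the 24514 gene symbols in the count table, chosen by name from the steps of the pathway, by a rule that sets no threshold on a measured value. The choice was made with earlier results of these data known. All 33 were present in the table. Libraries were made from pools of 10 sorted cells. The design crossed 2 reporter populations with 2 sources, giving 5 in vivo GFP+ libraries, 4 in vivo RFP+ libraries, 38 in vitro GFP+ libraries and 46 in vitro RFP+ libraries. All cells carried Hcn4-GFP, Tbx1-Cre and the Ai9 Cre reporter. GFP follows Hcn4, which marks the first heart field (FHF), and the red reporter permanently marks cells whose ancestors expressed Tbx1, which labels the second heart field (SHF), so RFP+ cells need not express Tbx1 when sorted. In vivo cells came from mouse embryos labelled E8.5 in the sample titles and E7.75 in the protocol, with no label tying a library to an embryo. In vitro cells came from spheroids of an embryonic stem cell line of that genotype, which per the labels were induced with Activin A, Bmp4 and Wnt proteins alone or in combination, and sorted at day 5.5, with no label tying a well to a culture. P-values therefore measure the spread between these pools, which may be technical.

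Glucose enters most embryonic cells through facilitative transporters, is trapped by hexokinase and is split and oxidised to pyruvate in the cytosol. Pyruvate is then reduced to lactate, which leaves through monocarboxylate transporters, or it enters mitochondria through the pyruvate carrier and is oxidised by the pyruvate dehydrogenase complex, which pyruvate dehydrogenase kinases switch off. Several steps have isoforms named for the adult tissue where they prevail, such as muscle or brain, and several of the genes are known targets of the hypoxia-inducible transcription factors. Early embryos and pluripotent cells are known for a high glycolytic rate, and the mature heart for the oxidation of fatty acids and lactate.

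Total counts per library ranged from 712732 to 2525460 in vivo and from 445071 to 5658882 in vitro, apart from the GFP+ spheroid well C9 with 6288 counts, where 1 count was worth 73.3 counts per 1000000 counts after normalisation (CPM). Genes detected numbered 6189 to 8302 in the GFP+ and 10263 to 13052 in the RFP+ in vivo libraries, so these groups did not overlap in complexity. Spheroid wells had a median of 13689 genes detected in GFP+ cells and a range of 11434 to 13880 in RFP+ cells. The summed level of 12 cardiomyocyte markers was 18262 to 51860 CPM in GFP+ and 1178 to 2272 CPM in RFP+ cells in vivo. In vitro the medians were 71.3 and 63.5 CPM, with ranges of 0 to 1279 CPM in GFP+ and 21.8 to 143 CPM in RFP+ wells. Hcn4 itself averaged 14.9 ± 16.7 CPM (SD, n = 5) in GFP+ and 0.358 ± 0.716 CPM (SD, n = 4) in RFP+ cells in vivo. Tbx1 had no reads in GFP+ cells in vivo and averaged 3.94 ± 3.53 CPM (SD, n = 4) in RFP+ cells. The 8 endoderm markers summed to 8.60 to 641 CPM in RFP+ cells in vivo, while 7 of the 8 had no reads in the GFP+ libraries. In spheroid wells they summed to 175 to 701 CPM in GFP+ and 40.7 to 402 CPM in RFP+ cells. Of 7 blood markers, 4 had no reads in GFP+ embryo libraries and 3 had none in RFP+ embryo libraries, where the sum had a median of 0 and reached 1154 CPM. The 7 pluripotency markers reached 1667 CPM in GFP+ and 563 CPM in RFP+ spheroid wells, with medians of 171 and 43.1 CPM. In embryo libraries they reached 492 CPM in GFP+ and 78.0 CPM in RFP+ cells, with medians of 0 and 19.0 CPM. In 7 plate rows the RFP+ wells of columns 3 and 4 were nearly identical, with a chi-square per gene of 1.37 to 2.39 against 4.23 to 8.21 for other neighbours, which is above sampling noise, so they were kept apart and summed only as an alternative. In pools of cells, fewer cells of a type and less RNA per cell cannot be told apart.

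The promoters of members with the lowest adjusted p between the populations in vivo are shown because hypoxia-inducible factors bind a core ACGTG. Each sequence is from RefSeq (GRCm38.p6) and runs from 250 bases before to 50 bases after the annotated start, 5′ to 3′ on the strand of the gene, with ACGTG in capitals, also where it lies on the other strand as CACGT. The Slc2a1 window (chr4:119108495-119108794, + strand) and the Slc16a3 window (chr11:120948817-120949116, + strand) hold it, and the windows of Pgam2 (chr11:5803747-5804046, - strand), Eno3 (chr11:70656926-70657225, + strand) and Pfkp (chr13:6648722-6649021, - strand) do not. Slc2a3 also belongs to this set by its adjusted p.
Slc2a1: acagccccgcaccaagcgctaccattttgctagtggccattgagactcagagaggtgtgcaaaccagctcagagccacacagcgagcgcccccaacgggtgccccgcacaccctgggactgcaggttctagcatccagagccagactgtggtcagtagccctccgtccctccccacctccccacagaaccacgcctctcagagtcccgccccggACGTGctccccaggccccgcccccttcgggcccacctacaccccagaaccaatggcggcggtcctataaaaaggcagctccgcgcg
Slc16a3: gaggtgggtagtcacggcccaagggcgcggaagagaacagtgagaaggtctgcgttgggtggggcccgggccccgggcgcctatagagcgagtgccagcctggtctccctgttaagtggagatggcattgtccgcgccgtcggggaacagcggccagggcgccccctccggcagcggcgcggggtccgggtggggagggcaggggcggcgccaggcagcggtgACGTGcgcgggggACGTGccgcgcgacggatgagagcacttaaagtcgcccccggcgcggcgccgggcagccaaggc
Pgam2: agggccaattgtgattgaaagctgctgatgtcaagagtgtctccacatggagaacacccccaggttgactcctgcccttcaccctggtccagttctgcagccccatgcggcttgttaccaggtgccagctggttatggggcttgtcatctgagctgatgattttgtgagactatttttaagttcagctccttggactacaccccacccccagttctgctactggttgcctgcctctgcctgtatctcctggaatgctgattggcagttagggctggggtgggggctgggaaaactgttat
Eno3: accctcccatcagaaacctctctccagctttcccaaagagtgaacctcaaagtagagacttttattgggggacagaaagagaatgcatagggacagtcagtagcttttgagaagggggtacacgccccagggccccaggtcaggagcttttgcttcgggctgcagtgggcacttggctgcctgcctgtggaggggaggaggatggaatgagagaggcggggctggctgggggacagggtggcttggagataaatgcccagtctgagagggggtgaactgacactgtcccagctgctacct
Pfkp: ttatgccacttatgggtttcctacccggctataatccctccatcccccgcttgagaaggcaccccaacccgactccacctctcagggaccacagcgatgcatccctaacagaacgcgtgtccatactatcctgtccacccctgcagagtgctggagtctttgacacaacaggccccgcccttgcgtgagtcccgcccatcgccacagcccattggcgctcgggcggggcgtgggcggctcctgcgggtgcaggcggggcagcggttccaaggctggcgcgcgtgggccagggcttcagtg
ACGTG was found on either strand in a promoter of 16 of the 31 members that the table holds and in 21.8% of all 27025 genes. Over promoters, it was in 41.7% of the 48 member promoters and 19.6% of all 32851 promoters of the same length. CACGTG, an E-box that overlaps it, was in 12.5% of member promoters and 7.15% of all promoters. A match describes letters and is not a bound site. Member promoters and all promoters were not matched for base composition, which also sets how often these letters occur.

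In vivo, 8 members were higher in GFP+ than in RFP+ cells and none of the tested members passed the threshold in the other direction. They were the glucose transporters Slc2a1 and Slc2a3, the lactate exporter Slc16a3, the early enzymes Gpi1 and Pfkp, and the late enzymes Pgam2, Eno3 and Pkm. Calls used edgeR's quasi-likelihood test over all genes with a threshold of 0.1 on the Benjamini-Hochberg adjusted p. Of the 33 members, 24 passed the filter on low counts and 9 did not (Slc2a4, Hk1, Pfkfb2, Pfkfb4, Aldoc, Eno2, Pdk2, Pdk4 and Mpc1). The background of calls over all 8503 genes tested was 3.88% with GFP+ higher and 6.21% with RFP+ higher. The median log2 fold change, RFP+ over GFP+, was -0.60 over the 24 members and 0.09 over all genes tested, and other scalings moved the latter between -0.04 and 0.12. At an unadjusted p under 0.05, 4 members (Aldoa, Tpi1, Gapdh and Pgam1) had the higher level in RFP+ cells, and none did with DESeq2 size factors or TMMwsp in the edgeR fit or without GFP+ library D12. DESeq2 called 7 members, all higher in GFP+ cells, and a limma fit with a separate weight for each group, added after the data were seen, called the same 8 plus Aldoa and Tpi1, which were higher in RFP+ cells. Genes detected and cardiomyocyte markers moved with the population in these same libraries, and their part in the results was not tested.

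**Figure D1:**
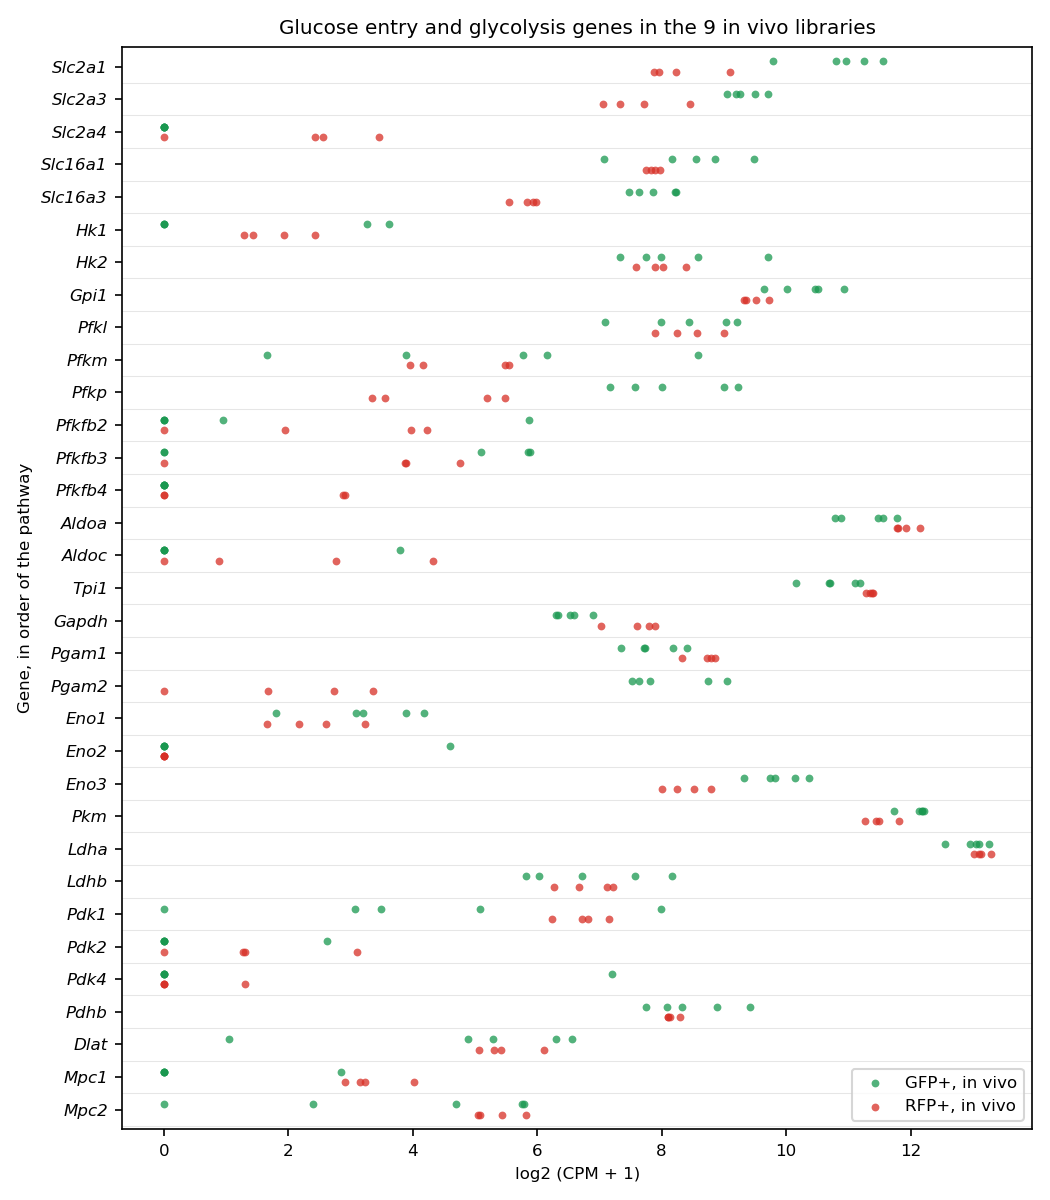
Each point is one in vivo library of 10 cells, placed by log2 (CPM + 1) on the horizontal axis for each gene on the vertical axis, with 5 GFP+ libraries in green and 4 RFP+ libraries in red. Slc2a1, Slc2a3, Slc16a3, Pfkp, Pgam2 and Eno3 form separate clusters with GFP+ higher, while Ldha overlaps near the right edge.

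The glucose transporters differed most clearly among the entry genes. Slc2a1 (chr4:119108711-119137983, + strand, GRCm38) encodes the transporter that supplies basal glucose to most embryonic cells. Its level was 1775, 3014, 885, 1997 and 2425 CPM in the GFP+ libraries and 547, 248, 301 and 234 CPM in the RFP+ libraries. Every GFP+ library lay above every RFP+ library, with a log2 fold change of -2.64 ± 0.36 (SE; 6.23-fold, adjusted p = 7.07e-04, edgeR). Slc2a3, a high-affinity transporter, stood at 719, 528, 585, 615 and 833 CPM in GFP+ cells and at 349, 160.2, 209 and 132 CPM in RFP+ cells. The groups again did not overlap, and the log2 fold change was -1.67 ± 0.32 (SE; adjusted p = 0.00768, edgeR). Slc2a4, the insulin-responsive transporter, had no reads in the 5 GFP+ libraries and 0 to 10.0 CPM in the RFP+ libraries, below the filter for testing.

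The transporters of lactate did not move alike. Slc16a3, known for lactate export from glycolytic cells, was present at 298, 232, 177, 197 and 297 CPM in GFP+ and at 59.7, 45.7, 62.5 and 55.9 CPM in RFP+ libraries. That separation of groups gave a log2 fold change of -2.15 ± 0.43 (SE; 4.42-fold, adjusted p = 0.00954, edgeR). Slc16a1, which carries lactate either way, was at 134 to 716 CPM in GFP+ and 214 to 249.9 CPM in RFP+ cells and was not called (log2 fold change -0.81 ± 0.41 SE, adjusted p = 0.384).

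Among the enzymes of the first steps, Hk2, the main hexokinase of these cells, overlapped between the populations (160.0 to 834 CPM in GFP+ and 191 to 335 CPM in RFP+, adjusted p = 0.700). Hk1 reached 11.2 CPM at most and was not tested. Gpi1, which turns glucose 6-phosphate into fructose 6-phosphate, was at 1955, 1462, 802, 1037 and 1408 CPM in GFP+ and at 844, 652, 642 and 728 CPM in RFP+ libraries. These groups overlapped by 1 GFP+ library, and the log2 fold change was -0.93 ± 0.25 (SE; adjusted p = 0.0317, edgeR). The Gpi1 call was lost without RFP+ library G11 (adjusted p = 0.132), G12 (0.115) or H11 (0.101). Pfkp (chr13:6579768-6648777, - strand) encodes the platelet-type phosphofructokinase and lay at 188, 596, 143, 256 and 513 CPM in GFP+ against 43.7, 9.14, 35.5 and 10.7 CPM in RFP+ cells. Its lowest GFP+ library was above its highest RFP+ library, with a log2 fold change of -3.82 ± 0.68 (SE; 14.1-fold, adjusted p = 0.00435, edgeR). The liver-type Pfkl showed no such separation, at 136, 252, 346, 521 and 592 CPM in GFP+ and 513, 235, 377 and 302 CPM in RFP+ libraries (log2 fold change -0.10 ± 0.42 SE, adjusted p = 0.975). Pfkm, the muscle type, ran from 2.15 to 381 CPM within the GFP+ libraries and from 14.6 to 45.6 CPM within the RFP+ libraries and was not called. Of the bifunctional enzymes that make and remove the activator of phosphofructokinase, Pfkfb3 was at 0 to 58.4 CPM in GFP+ cells and 0 to 26.0 CPM in RFP+ cells, and Pfkfb4 had no reads in GFP+ cells. Pfkfb2 had 57.1 CPM in GFP+ library B12, 0.934 CPM in D12 and no reads in the other GFP+ libraries, against 0, 14.8, 17.7 and 2.87 CPM in the RFP+ libraries.

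The middle steps had higher means in RFP+ cells without passing the threshold. Tpi1, triose phosphate isomerase, was at 1644, 2215, 1147, 1660.5 and 2320.2 CPM in GFP+ and at 2665, 2497, 2612 and 2687 CPM in RFP+ libraries. Its groups did not overlap, but the adjusted p was 0.186 (log2 fold change 0.50 ± 0.19 SE). Gapdh, the glyceraldehyde phosphate dehydrogenase often used as a reference gene, likewise did not overlap, at 78.1 to 118 CPM in GFP+ and 129.7 to 235 CPM in RFP+ cells (log2 fold change 1.03 ± 0.45 SE, adjusted p = 0.261). Its level is uncertain, since 82.5% of 50-base windows along its exons also occur in other annotated genes. Such windows made up 25.3% for Gpi1, 17.1% for Pfkp, 25.1% for Pfkfb2, 13.5% for Aldoa, 16.6% for Ldha and 29.6% for Mpc1, so these levels are less certain too. In Pfkp 748 and in Mpc1 480 exonic bases also overlap a gene on the other strand. Non-overlapping groups with RFP+ higher were found for 13.7% of all genes tested, and with GFP+ higher for 3.60%. Aldoa, the main aldolase, was at 1756 to 3519.8 CPM in GFP+ and 3512 to 4538 CPM in RFP+ cells (adjusted p = 0.176), and Pgam1, the brain-type mutase, at 162 to 337 and 321 to 463 CPM (adjusted p = 0.237). Aldoc was at 12.8 CPM in GFP+ library E12 with no reads in the other 4, and at 5.83, 19.0, 0.844 and 0 CPM in the RFP+ libraries.

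The muscle-type isoforms of the late steps were higher in GFP+ cells. Pgam2 (chr11:5801640-5803733, - strand), the muscle phosphoglycerate mutase, was at 224, 529, 182, 198 and 429 CPM in GFP+ libraries and at 2.19, 5.62, 0 and 9.31 CPM in RFP+ libraries. The log2 fold change was -6.19 ± 0.89 (SE; adjusted p = 0.00102, edgeR), and the gene passed the filter through its GFP+ libraries alone. Eno3 (chr11:70657202-70662513, + strand), the muscle enolase, was at 852, 1317, 642, 899 and 1128 CPM in GFP+ and at 365, 441, 257 and 303 CPM in RFP+ libraries. All 5 GFP+ values were above all RFP+ values (log2 fold change -1.54 ± 0.26 SE, 2.92-fold, adjusted p = 0.00336, edgeR). Eno2, the neuronal enolase, had reads in GFP+ library B12 only (23.4 CPM) and none in RFP+ cells. Eno1, the widespread form, was counted at 2.48 to 17.2 CPM in GFP+ and 2.15 to 8.44 CPM in RFP+ libraries, and 72.2% of its windows occur in other genes, chiefly Eno1b, so its level and its share among enolases are uncertain.

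Pkm, pyruvate kinase, was at 4734, 4674, 3417, 4517 and 4649 CPM in GFP+ and at 3587, 2474, 2893 and 2797 CPM in RFP+ libraries. The groups overlapped by GFP+ library C12, and the log2 fold change was -0.62 ± 0.15 (SE; 1.54-fold, adjusted p = 0.0173, edgeR). The Pkm call was lost without RFP+ library G11 (adjusted p = 0.102) and in DESeq2 (0.104), and 34.4% of its windows occur in other genes. Ldha (chr7:46841475-46855627, + strand), which makes lactate from pyruvate, was at 9858, 8769, 6009, 7895 and 8471 CPM in GFP+ and at 9991, 8812, 8273 and 9008 CPM in RFP+ libraries. These values overlapped, with a log2 fold change of 0.10 ± 0.13 (SE; adjusted p = 0.876). Ldhb, the heart-type subunit, was at 104, 189, 64.5, 286 and 55.6 CPM in GFP+ and at 138, 148, 100.5 and 75.9 CPM in RFP+ libraries and was not called (adjusted p = 0.929).

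The genes of pyruvate entry into mitochondria were low or variable in vivo, and none was called. Pdk1 was at 0, 32.9, 7.44, 10.3 and 253 CPM in GFP+ and at 141, 104, 111 and 74.5 CPM in RFP+ libraries, so GFP+ library E12 alone stood above the RFP+ range. Pdk4 had reads in that same GFP+ library (146 CPM) and no other, and in 1 RFP+ library (1.46 CPM). Pdk2 stayed at 7.60 CPM or less. Pdhb, a subunit of pyruvate dehydrogenase, was at 473, 687, 270.3, 319 and 214 CPM in GFP+ and at 275, 279, 312 and 273 CPM in RFP+ libraries (adjusted p = 0.616). Mpc1, a subunit of the pyruvate carrier, had reads in 1 of 5 GFP+ libraries (6.20 CPM) and was at 6.56, 8.43, 15.2 and 7.88 CPM in the RFP+ libraries. Its groups did not overlap, at a level under the filter for testing. Its partner Mpc2 ranged from 0 to 54.5 CPM in GFP+ and from 32.1 to 55.7 CPM in RFP+ cells, and Dlat from 1.08 to 93.4 and from 32.3 to 68.4 CPM.

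In vitro, 26 of 28 tested members were called, RFP+ cells having the higher level of 14 and GFP+ cells of 12. The entry genes Slc2a1 and Slc2a3 and most genes of pyruvate entry into mitochondria were higher in GFP+ cells, whereas most enzymes from Aldoa to Ldha were higher in RFP+ cells. With 38 and 46 wells, the background over all 9940 genes tested was 37.8% called with RFP+ higher and 40.1% with GFP+ higher, so the members' calls are near the background and the sizes are given. A change of at least 2-fold was seen in 11 called members and a smaller one in 15. Another 5 (Slc2a4, Hk1, Pgam2, Eno1 and Pdk2) did not pass the filter, with mean levels of 0.839 to 6.84 CPM. The median log2 fold change was 0.13 over the 28 members and -0.02 over all genes. GFP+ and RFP+ wells occupied different plate columns, so plate column and population cannot be told apart. Neither leaving out well C9, nor summing the near-identical RFP+ wells, nor adding plate row to the fit changed the count of 26.

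**Figure D2:**
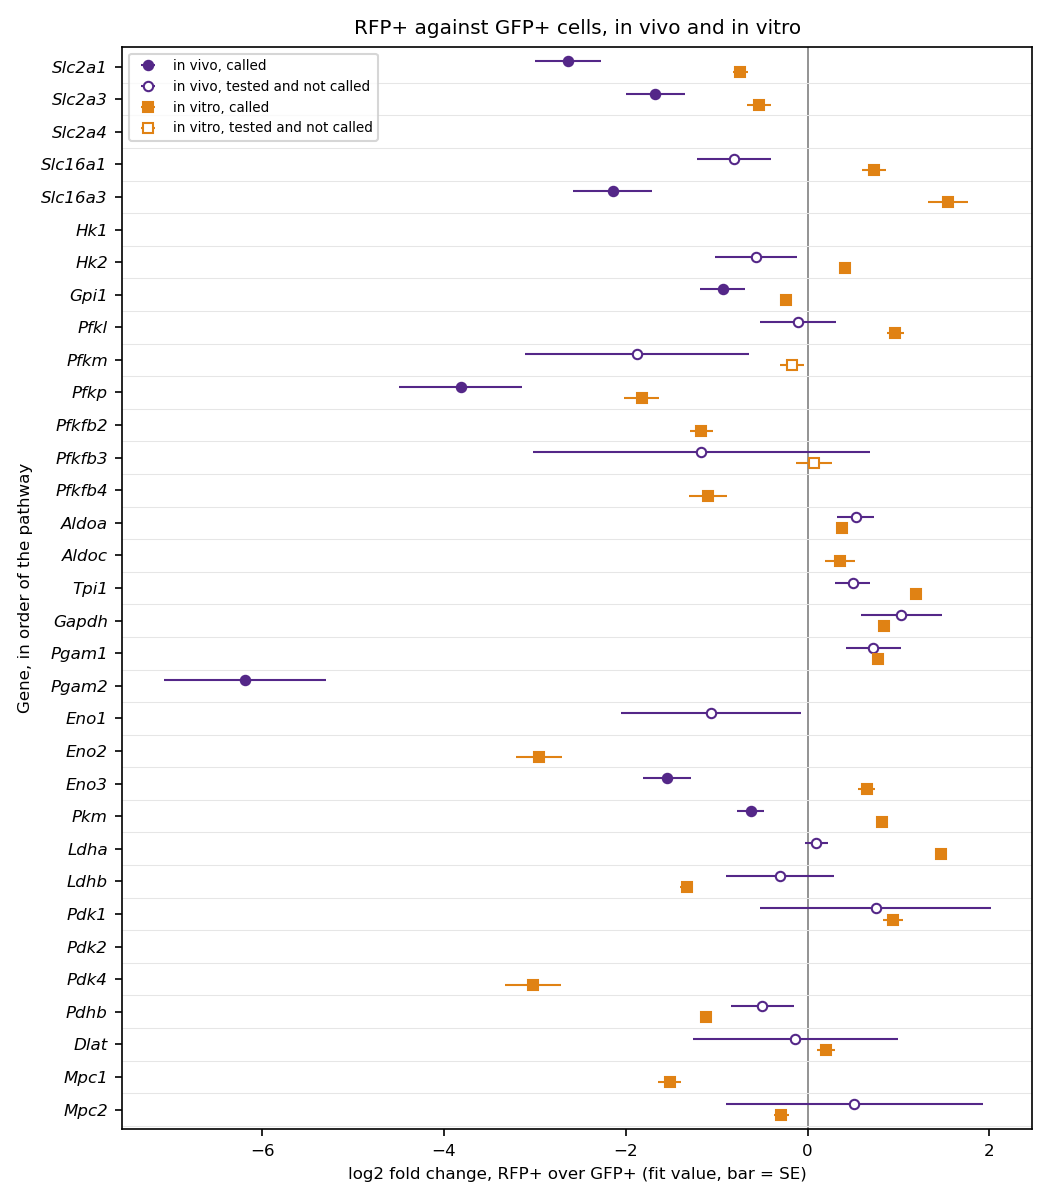
Points give the log2 fold change of RFP+ over GFP+ cells with its SE on the horizontal axis for each gene on the vertical axis, in vivo as circles and in vitro as squares, filled where called, and genes that were not tested have no point. Slc16a3, Eno3 and Pkm lie to the left in vivo and to the right in vitro.

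Slc2a1 was at 147, 488 and 909 CPM (lowest, median and highest well) in GFP+ and at 115, 299 and 504 CPM in RFP+ spheroids, where the lowest GFP+ value is that of well C9. Well C9 also gave the lowest GFP+ values of Tpi1, Pdhb and Pdk1 below. Slc2a3, Pfkfb2, Aldoc, Eno2, Pdk4 and Mpc1 each had 1 GFP+ well without reads. For all of these but Slc2a3 it was C9, where 1 count was worth 73.3 CPM, above their highest GFP+ values. For Slc2a3 it may be the same well. The ranges of Slc2a1 overlapped, with a log2 fold change of -0.74 ± 0.09 (SE; 1.67-fold, adjusted p = 5.95e-13, edgeR). Slc2a3 ran at 0, 95.6 and 185 CPM in GFP+ and 26.0, 60.3 and 184 CPM in RFP+ wells, a log2 fold change of -0.54 ± 0.13 (SE; adjusted p = 2.24e-04). The lactate transporters went the other way. Slc16a3 was nearly absent, at 0, 3.04 and 13.6 CPM in GFP+ and 1.44, 9.68 and 27.5 CPM in RFP+ wells, with a log2 fold change of 1.54 ± 0.22 (SE; 2.91-fold, adjusted p = 1.79e-09). It passed the filter through RFP+ wells, 32 of 46 being over its cutoff of 6.62 CPM against 4 of 38 GFP+ wells. With GFP+ wells this low, it was tested only through the group where it was higher. Slc16a1 was higher in RFP+ cells by a log2 fold change of 0.73 ± 0.13 (SE).

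The phosphofructokinase types diverged. Pfkp was at 3.98, 34.5 and 136 CPM in GFP+ and 0, 10.9 and 35.9 CPM in RFP+ wells, with a log2 fold change of -1.82 ± 0.19 (SE; 3.54-fold, adjusted p = 1.06e-14). Pfkl was at 29.0, 70.3 and 164 CPM in GFP+ and 40.3, 139 and 221 CPM in RFP+ wells, with a log2 fold change of 0.96 ± 0.09 (SE; 1.95-fold, adjusted p = 1.57e-16). Pfkm was not called (adjusted p = 0.224). Among the bifunctional enzymes, Pfkfb2 and Pfkfb4 were higher in GFP+ cells. Pfkfb2, a heart-type form, was at 0, 33.2 and 65.3 CPM in GFP+ and 2.07, 15.9 and 35.7 CPM in RFP+ wells (log2 fold change -1.17 ± 0.13 SE). Pfkfb4 was at 0, 14.1 and 36 CPM in GFP+ and 0, 6.98 and 19.1 CPM in RFP+ wells (log2 fold change -1.09 ± 0.21 SE). Pfkfb3 was not called, and Gpi1 fell by 0.23 on the log2 scale and Hk2 rose by 0.41 from GFP+ to RFP+ cells.

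Ldha was the only member whose populations did not overlap in vitro, and the share of all genes without overlap was not computed there. Overlap can rest on well C9, which set the lowest GFP+ value of Pdhb (147 CPM) below its RFP+ maximum of 442 CPM. Ldha was at 632, 1098 and 2038 CPM in GFP+ and 2297, 3151 and 4565 CPM in RFP+ wells. Every RFP+ well lay above every GFP+ well, and the log2 fold change was 1.47 ± 0.07 (SE; 2.76-fold, adjusted p = 1.52e-36, edgeR). Ldhb, which prevails in oxidative tissue, moved the other way, at 315, 526 and 689 CPM in GFP+ and 132, 193 and 385 CPM in RFP+ wells (log2 fold change -1.33 ± 0.07 SE, 2.52-fold, adjusted p = 9.37e-34). Tpi1 was at 147, 621 and 1053 CPM in GFP+ and 928, 1479 and 1851 CPM in RFP+ wells, overlapping at the edges (log2 fold change 1.19 ± 0.06 SE, 2.28-fold). Pkm was at 672, 1076 and 1580.2 CPM in GFP+ and 1181, 1957 and 2362 CPM in RFP+ wells (log2 fold change 0.82 ± 0.05 SE, 1.76-fold). Eno3 was at 31.5, 81.4 and 144 CPM in GFP+ and 45.6, 133 and 219 CPM in RFP+ wells (log2 fold change 0.65 ± 0.09 SE). Gapdh, Pgam1, Aldoa and Aldoc were higher in RFP+ cells too, with log2 fold changes of 0.85, 0.77, 0.38 and 0.35. Eno2 was an exception among the late enzymes, at 0, 27.2 and 66.4 CPM in GFP+ and 0, 3.33 and 13.8 CPM in RFP+ wells (log2 fold change -2.95 ± 0.25 SE, 7.74-fold, adjusted p = 1.42e-19). It too passed through GFP+ wells, 37 of 38 against 8 of 46 RFP+ wells being over the cutoff.

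Genes that send pyruvate into mitochondria were mostly higher in GFP+ spheroid cells. Pdhb was at 147, 708 and 990.1 CPM in GFP+ and 246, 327 and 442 CPM in RFP+ wells (log2 fold change -1.11 ± 0.05 SE, 2.16-fold, adjusted p = 4.71e-37), with 30.3% of its windows shared with another annotated gene, Gm6123. Mpc1 was at 0, 26.5 and 54.8 CPM in GFP+ and 3.54, 9.62 and 21.7 CPM in RFP+ wells (log2 fold change -1.51 ± 0.13 SE, 2.86-fold). Mpc2 followed with a smaller log2 fold change of -0.29 ± 0.08 (SE), while Dlat was higher in RFP+ cells by 0.20 ± 0.10 (SE; adjusted p = 0.0604). The kinases that inhibit the complex split. Pdk1 was at 0, 25.2 and 49.0 CPM in GFP+ and 21.9, 55.1 and 93.5 CPM in RFP+ wells (log2 fold change 0.94 ± 0.11 SE). Pdk4 was at 0, 14.8 and 39.2 CPM in GFP+ and 0, 0.548 and 11.8 CPM in RFP+ wells, with a log2 fold change of -3.02 ± 0.31 (SE, adjusted p = 1.61e-15). Pdk4 passed the filter through GFP+ wells, 31 of 38 against 3 of 46 RFP+ wells being over the cutoff. Pluripotency markers were also higher in GFP+ wells in vitro, 5 of 6 tested being called that way. Of 4 tested cardiomyocyte markers, 3 were called higher in GFP+ wells and 0 in RFP+ wells. The part of both marker sets in these differences was not tested.

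The 2 sources did not give the same population difference for every gene. Called in both were 7 members, 4 with GFP+ higher in both sources (Slc2a1, Slc2a3, Gpi1 and Pfkp) and 3 in opposite directions (Slc16a3, Eno3 and Pkm). Of all 234 genes called in both and higher in GFP+ cells in vivo, 44.0% were called in the opposite direction in vitro, so the members' count is near that share. The difference of the log2 fold changes, in vitro minus in vivo, was tested for 22 members and was called for 5, where 5.26% of the 8182 genes tested were called. It was 3.69 ± 0.49 (SE; adjusted p = 0.0180) for Slc16a3, 2.19 ± 0.28 (SE; adjusted p = 0.0153) for Eno3 and 1.44 ± 0.16 (SE; adjusted p = 0.0109) for Pkm. Slc2a1 kept its direction but was less different in vitro, by 1.90 ± 0.37 (SE; adjusted p = 0.0486). Ldha differed by 1.37 ± 0.15 (SE; adjusted p = 0.0109), the population difference being present in vitro and not called in vivo. For Pfkp the difference of 1.99 ± 0.71 (SE) was not called (adjusted p = 0.278). Pgam2 and Pdk4 could not be compared in this way, since each was tested in 1 source only. An interaction term in a single fit of all 4 groups, which shares 1 estimate of the spread, called 16 of the 22. The Slc16a3 values rest on the in vitro test that it entered through RFP+ wells.

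Most steps of glycolysis were lower in spheroid cells than in embryo cells of the same population. Among GFP+ cells 19 members were called higher in embryos and 8 higher in spheroids, of 31 tested, and among RFP+ cells 14 and 3, of 31 tested. For GFP+ cells 19.7% of all 11822 genes tested were called higher in embryos and 48.3% higher in spheroids. For RFP+ cells 20.1% of 11147 genes were called higher in embryos and 22.5% higher in spheroids. The member medians of the log2 fold change, spheroid over embryo, were -1.01 in GFP+ and -0.31 in RFP+ cells, beside 0.67 and 0.04 over all genes tested. In GFP+ cells the scaling mattered, since DESeq2 size factors moved the median of all genes to 0.22 and the share of calls that were higher in spheroids from 71.1% to 57.4%, with 7 members higher in spheroids and 20 in embryos. All 33 members together took 2.00% to 2.91% of the counts in GFP+ and 2.02% to 2.44% in RFP+ embryo libraries, and 0.60% to 1.14% and 0.79% to 1.42% in spheroid wells. Source, plate column and culture state cannot be told apart, and cardiomyocyte markers and genes detected differed between sources as given above. In GFP+ cells all 4 tested endoderm markers were called higher in spheroids, as were 6 of 7 pluripotency markers, with 1 lower. In RFP+ cells 2 of 5 tested endoderm markers were called higher and 2 lower in spheroids, and 4 of 6 pluripotency markers higher. The part of cell composition in these comparisons was not tested. These comparisons rest on 5 or 4 embryo libraries, and a limma fit with a weight for each group, added after the data were seen, called 15 members in GFP+ cells and 13 in RFP+ cells, all of them among the 27 and 17 called by edgeR.

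**Figure D3:**
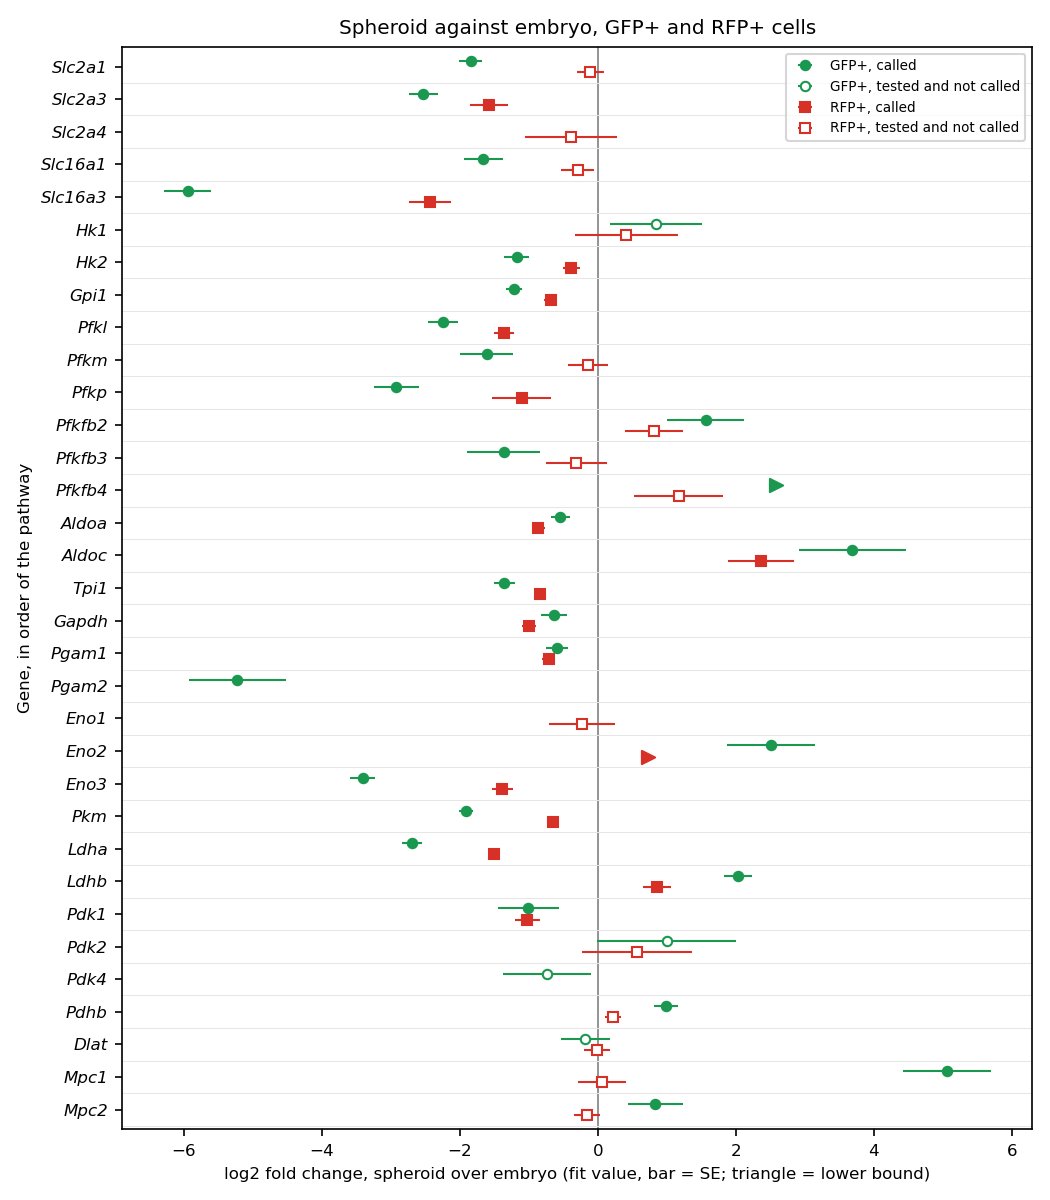
Points give the log2 fold change of spheroid over embryo cells with its SE on the horizontal axis for each gene on the vertical axis, GFP+ as circles and RFP+ as squares, filled where called, and triangles are lower bounds for genes without reads in embryos. Ldha, Eno3 and Slc16a3 lie left of zero in both populations, and Ldhb and Aldoc right of it.

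Both comparisons called 14 members as higher in embryos and 3 as higher in spheroids, and none in opposite directions. Slc16a3 had the largest fall among the members in both populations, with log2 fold changes of -5.95 ± 0.35 (SE; adjusted p = 1.78e-20) in GFP+ and -2.44 ± 0.30 (SE; adjusted p = 1.41e-09) in RFP+ cells. Ldha fell by 2.69 ± 0.15 (SE) and by 1.5 ± 0.08 (SE) on the log2 scale, the embryo libraries at 6009 to 9991 CPM lying above every spheroid well, which reached 4565 CPM. Eno3 fell by 3.41 ± 0.18 (SE) and 1.38 ± 0.15 (SE), again with no overlap in either population. The share of all genes without overlap was not computed between sources. Slc2a3 fell by 2.53 ± 0.21 (SE) and 1.58 ± 0.27 (SE), Pfkl by 2.24 ± 0.22 (SE) and 1.36 ± 0.15 (SE), and Pkm by 1.91 ± 0.10 (SE) and 0.65 ± 0.08 (SE). Gpi1, Aldoa, Tpi1, Gapdh, Pgam1 and Hk2 were also called higher in embryos in the 2 populations, with falls between 0.38 and 1.36 on the log2 scale, though under the limma fit Hk2 lost the call in both populations, and Aldoa, Gapdh and Pgam1 lost it in GFP+ cells (adjusted p = 0.249, 0.273 and 0.233). Pfkp fell by 2.92 ± 0.33 (SE) in GFP+ and 1.11 ± 0.42 (SE) in RFP+ cells, and the latter call was lost without RFP+ library F12 (adjusted p = 0.330) or G12 (0.184).

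Slc2a1 was lower in spheroids among GFP+ cells (log2 fold change -1.84 ± 0.17 SE, adjusted p = 2.91e-13) and was not called among RFP+ cells (-0.11 ± 0.20 SE, adjusted p = 0.706). Pgam2 fell in GFP+ cells from 182 to 529 CPM in embryos to a median of 0.974 CPM in spheroids, where 17 of 38 wells had no reads and 1 well reached 74.5 CPM. Slc16a1 (-1.66 ± 0.28 SE), Pfkm (-1.61 ± 0.39 SE) and Pfkfb3 (-1.37 ± 0.53 SE) were also called lower in spheroids among GFP+ cells alone, but Pfkm lost the call without embryo library C12 (log2 fold change -0.12, adjusted p = 0.813) and Pfkfb3 without A12 or D12 (adjusted p = 0.107 and 0.174). Hk1, Pdk2, Pdk4 and Dlat were tested in GFP+ cells and not called, and without E12 Pdk4 was called higher in spheroids (log2 fold change 7.87, adjusted p = 2.08e-08). Pdk1 was called lower in spheroids in both populations, but in GFP+ cells this rested on embryo library E12, without which the log2 fold change was 1.11 (adjusted p = 0.0292), in the other direction.

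The genes higher in spheroids in both populations were Ldhb, Aldoc and Eno2. In GFP+ cells Aldoc, Eno2, Pfkfb2, Pfkfb4 and Mpc1 passed the filter through spheroid wells, at most 1 embryo library being over its cutoff. In RFP+ cells Aldoc and Eno2 did so too, with 1 and 0 of 4 embryo libraries over the cutoff. Spheroid wells over it were 45 and 7 of 46, so both were tested through the group where they were higher. Ldhb rose by 2.03 ± 0.20 (SE; adjusted p = 3.55e-12) in GFP+ and by 0.86 ± 0.20 (SE; adjusted p = 5.89e-04) in RFP+ cells on the log2 scale. Aldoc, the brain-type aldolase, was at 0, 20.1 and 68.2 CPM in GFP+ and 4.35, 34.8 and 78.7 CPM in RFP+ wells, above the embryo levels given above (log2 fold changes 3.69 ± 0.77 and 2.36 ± 0.48, SE). Eno2 rose by 2.51 ± 0.64 (SE) in GFP+ cells, and in RFP+ cells, where no embryo library had a read, it was at least 1.66-fold higher against a floor of 3 counts per library. Pfkfb4, with no reads in GFP+ embryo cells, was at least 6-fold higher in GFP+ spheroids by the same floor and was not called in RFP+ cells (adjusted p = 0.155). That floor covers counting error only, not transcripts lost before sequencing. GFP+ embryo libraries had 6189 to 8302 genes detected, against a median of 13689 in GFP+ spheroid wells. The part of this gap in genes absent from or low in embryo libraries was not tested. In GFP+ cells Mpc1 (log2 fold change 5.06 ± 0.64 SE), Pdhb (0.99 ± 0.17 SE), Pfkfb2 (1.56 ± 0.56 SE) and Mpc2 (0.83 ± 0.40 SE, adjusted p = 0.0634) were higher in spheroids, and none of these was called in RFP+ cells. The Mpc2 call was lost without embryo library A12, D12 or E12. Under the limma fit the calls in GFP+ cells for Aldoc, Eno2, Pfkfb4, Pfkfb2 and Mpc1 were lost (adjusted p 0.148 to 0.374), as were those in RFP+ cells for Aldoc and Eno2 (0.125 and 0.40). Whether the change between sources differed between the populations is the same contrast as the difference tested above.

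Isoform shares describe which gene carried each step, as CPM per kilobase of exon of 1 isoform over the sum of its family within a library, with no test. Pgam2 made up 73.9% ± 4.61 (SD, n = 5) of the mutase level in GFP+ embryo cells but 2.23% ± 2.10 (SD, n = 4) in RFP+ embryo cells, 6.97% ± 12.6 (SD, n = 38) in GFP+ spheroids and 0.834% ± 1.80 (SD, n = 46) in RFP+ spheroids. Without division by exon length it was 54.7% in GFP+ embryo cells, and 41.5% of Pgam1 windows also occur in other genes, so the Pgam1 level and the share are uncertain. Ldhb took 50.1% ± 8.72 (SD, n = 38) of lactate dehydrogenase in GFP+ spheroids and 12.2% ± 3.31 (SD, n = 46) in RFP+ spheroids, against 3.44% ± 2.32 (SD, n = 5) and 2.62% ± 0.70 (SD, n = 4) in the embryo. GFP+ spheroid cells thus stood apart from the other 3 groups in this family, since the lowest of their wells (28.7%) exceeded the highest RFP+ well (21.5%). Without division by exon length Ldhb was at 32.7% in GFP+ and 6.22% in RFP+ spheroids, and 27.0% of its windows also occur in Gm5514. Pfkl was the leading phosphofructokinase in RFP+ cells, at 82.8% ± 6.91 (SD, n = 4) in vivo and 69.8% ± 9.62 (SD, n = 46) in vitro. In GFP+ cells it took 52.1% ± 18.1 (SD, n = 5) in vivo and 46.8% ± 11.7 (SD, n = 38) in vitro, with Pfkp at 27.1% ± 15.6 and 13.9% ± 7.94, and Pfkp reached at most 6.03% in any RFP+ library. Pfkm took 20.8% ± 25.7 (SD, n = 5) in GFP+ embryo cells and 39.3% ± 14.1 (SD, n = 38) in GFP+ spheroids, above Pfkp in the latter. In RFP+ cells Pfkm took 14.6% in vivo and 27.5% in vitro on average. Without division by exon length the Pfkp share was 43.1% in GFP+ embryo cells and 28.2% in GFP+ spheroids, and at most 13.5% in any RFP+ library. On that scale Pfkm was at 12.0% and 22.1% in the GFP+ groups, below Pfkp. Pdk4 accounted for 49.4% ± 18.5 (SD, n = 37) of the kinases in GFP+ spheroids, where 1 well had no kinase reads, and for 5.53% ± 7.08 (SD, n = 46) in RFP+ spheroids. Slc16a3 took 36.7% ± 9.73 (SD, n = 5) of the 2 lactate transporters in GFP+ embryo cells and 16.7% ± 1.54 (SD, n = 4) in RFP+ embryo cells, and 2.89% and 4.62% on average in GFP+ spheroids (37 wells with reads) and RFP+ spheroids. Slc2a1 was the main glucose transporter in all groups (75.5% to 90.6% on average), Hk2 the main hexokinase (96.9% to 99.3%) and Aldoa the main aldolase (98.6% to 99.9%). Eno3 held 86.8% to 99.5% of the enolase level on average, a share that depends on the uncertain level of Eno1.

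**Figure D4:**
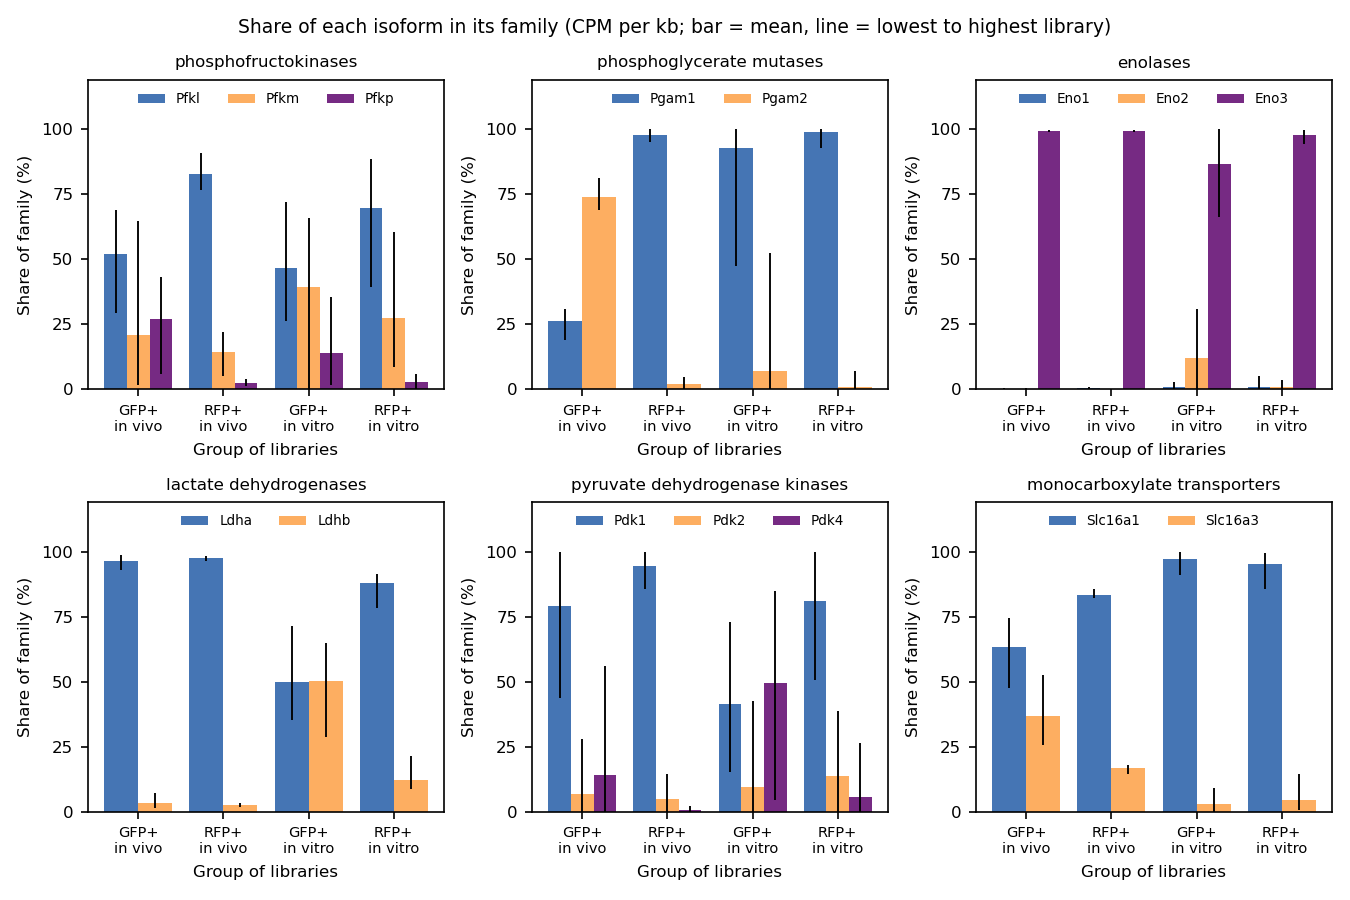
Bars give the mean share of each isoform in its family (percent of summed CPM per kilobase) and lines run from the lowest to the highest library, for 4 groups on each horizontal axis. The Pgam2 bar prevails only in GFP+ embryo cells, and the Ldhb bar reaches the height of Ldha only in GFP+ spheroids, on this scale per kilobase.

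Variation among wells within a population was examined for 12 relations between single genes, using log2 CPM with a prior count of 2 and permutation tests with 100000 resamples, adjusted over the 12. Bnip3, a mitophagy gene known to respond to hypoxia, was taken as a reference from outside the pathway. Ldha rose with Bnip3 across the 38 GFP+ wells (Pearson r = 0.707, Spearman rho = 0.736, adjusted permutation p = 6e-05 and 1.2e-04) and across 39 RFP+ wells, with near-identical ones summed (r = 0.544, rho = 0.496, adjusted permutation p = 9.1e-04 and 0.00492). Without the 2 wells farthest from the median of Bnip3, r was 0.690 and 0.490. Pkm rose with Ldha (r = 0.631, rho = 0.565, adjusted permutation p = 1.2e-04 and 0.00112 in GFP+; r = 0.747, rho = 0.644, adjusted permutation p = 6e-05 and 1.8e-04 in RFP+), and r was 0.540 and 0.654 without the 2 farthest wells. In GFP+ wells Pdk1 and Slc2a3 also varied with Bnip3 (r = 0.638 and 0.611), but these rested on few wells, r falling to 0.295 and 0.409 without the 2 farthest and to 0.364 and 0.272 without well C9 (adjusted permutation p = 0.0601 and 0.177). In RFP+ wells these relations were at r = -0.0196 and 0.0324. Slc2a1 with Bnip3 was at r = 0.298 and rho = 0.340 in RFP+ wells (adjusted permutation p = 0.113 and 0.0604) and at r = 0.263 and rho = -0.0605 in GFP+ wells (0.163 and 0.741). Hk2 with Slc2a1 was at r = 0.254 and 0.0106 in GFP+ and RFP+ wells (adjusted permutation p = 0.163 and 0.948). The 2 populations form separate clusters, so no pooled value is given, and the labels give no batch beyond the well position.

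**Figure D5:**
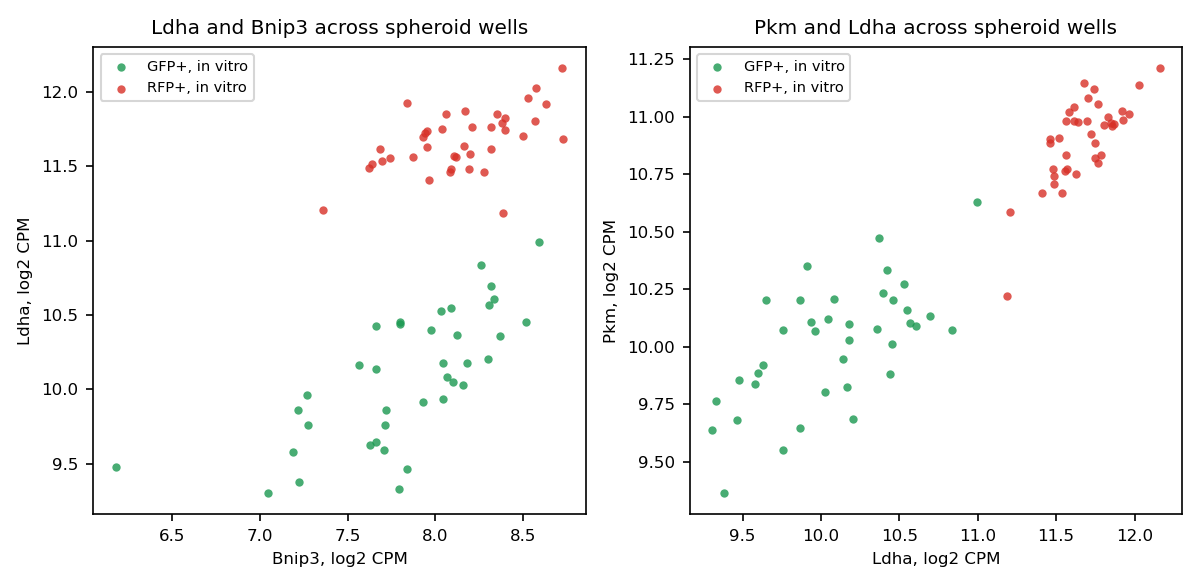
Each point is one spheroid well (log2 CPM on each axis), GFP+ in green and RFP+ in red, for Ldha against Bnip3 on the left and Pkm against Ldha on the right. Within each colour the points slope upwards, and the RFP+ wells sit higher in Ldha at like levels of Bnip3.

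Other genes of the pathway, its regulators and hypoxia-responsive genes outside it were counted from fixed lists. Of 47 neighbouring genes (sugar phosphate, pentose phosphate, shuttle and pyruvate metabolism) 29 were tested in vivo. Beside 3.88% of all genes called with GFP+ higher and 6.21% with RFP+ higher, 4 were called, all higher in GFP+ cells. They were Cs, citrate synthase (899 ± 255 against 307 ± 47.5 CPM, SD, n = 5 and 4), the aspartate aminotransferases Got1 (322 ± 128 against 49.0 ± 24.8 CPM) and Got2 (257 ± 79.1 against 52.9 ± 20.3 CPM) and Pgm2, a phosphoglucomutase (347 ± 166 against 87.9 ± 20.6 CPM). Got1 and Got2 are partners in the shuttle that carries cytosolic reducing power into mitochondria. In vitro 32 were tested and 27 called, of which 15 had the higher level in RFP+ and 12 in GFP+ cells, where 77.9% of all genes tested were called in either direction. The largest of these were Fbp2, a gluconeogenic phosphatase (25.7 ± 13.6 in GFP+ against 1.78 ± 4.61 CPM in RFP+, SD, n = 38 and 46), Pcx, Tigar and Pdp1, all higher in GFP+ cells, and Pgk1, the step between Gapdh and Pgam1, higher in RFP+ cells (563 ± 83 against 294 ± 72.7 CPM). Against embryos, spheroid GFP+ cells had 11 of 35 tested genes called higher and 13 lower, and spheroid RFP+ cells 5 and 8 of 34. Over all genes tested, 48.3% were called higher and 19.7% lower in spheroid GFP+ cells, and 22.5% and 20.1% in spheroid RFP+ cells.

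Of 29 regulators, 23 were tested in vitro and 20 called, near the share of 77.9% over all genes, 12 of them with the higher level in RFP+ cells. These included Mycn, a Myc family factor (162 ± 30.0 in RFP+ against 34.3 ± 14.8 CPM in GFP+, SD, log2 fold change 2.16 ± 0.10 SE), Txnip, which restrains glucose uptake, and Lin28a. Prkaa2, a catalytic subunit of the energy sensor AMPK, was higher in GFP+ cells (42.1 ± 13.8 against 9.97 ± 6.59 CPM). Among 22 hypoxia-responsive genes outside glycolysis, 15 were tested in vivo, where 3.88% of all genes were called with GFP+ higher and 6.21% with RFP+ higher. Of these 15, 3 were called, Bnip3 and P4ha1 higher in GFP+ and Fam162a higher in RFP+ cells. In vitro all 17 tested were called, against 77.9% of all genes, 10 higher in GFP+ cells, among them Ndrg1 (330 ± 131 against 43.0 ± 28.4 CPM), Bhlhe40, Ero1l and P4ha2, and 7 higher in RFP+ cells, with Fam162a at 349 ± 53.7 against 171 ± 44.6 CPM. The called genes of this list thus went both ways in each source, though in vivo only 3 were called. Against embryos, GFP+ spheroid cells had 7 regulators called higher and 6 lower of 27 tested, with 8 and 7 of 20 hypoxia-responsive genes, and RFP+ spheroid cells 5 and 7 of 23, with 4 and 8 of 20. The shares called higher and lower over all genes were 48.3% and 19.7% in GFP+ and 22.5% and 20.1% in RFP+ cells.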

How the data were processed

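Pools of 10 sorted cells were reverse transcribed with an oligo-dT primer, amplified by PCR and tagmented, without molecular identifiers. Per the labels and the submitters' processing notes, the authors ran Trimmomatic 0.36 at a quality of 35 and a shortest read of 36 bases, aligned reads to mm10 (GRCm38) with HISAT2 2.0.4 and deposited raw counts per gene from featureCounts 1.5.2. The annotation and strand setting are not given in the sources used here, so overlapping genes and copies could share reads.

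Groups were taken from the sample labels. For each comparison the counts were filtered with filterByExpr (minimum count 10, minimum total 15, minimum proportion 0.7), normalised by TMM and tested over all genes with edgeR 4.0.16 quasi-likelihood fits (R 4.3.3). Adjusted p-values follow Benjamini and Hochberg, with a threshold of 0.1. The difference between sources was tested on the difference of both log2 fold changes with 7 degrees of freedom. Levels are CPM. Alternatives were DESeq2 1.42.0, other scalings, no filter, a threshold of 0.05, a joint fit, plate row, summed near-identical wells, left-out libraries and limma 3.58.1 voom with weights per group, the last chosen after seeing the data. Relations used permutation tests in Python 3.11.15 with scipy 1.17.1. The tests were tried on simulated counts. Every member is named, with values per library for those called in vivo, called in vitro with a log2 fold change of at least 1, or called alike in both source comparisons with at least 1 in each; other listed genes that are named were called in vivo or are among the 5 of their list with the largest called change in vitro. The members and lists were chosen with earlier results of these data known. Library totals limit precision most in well C9, and the floor of 3 counts for a group without reads covers counting error only. The in vivo result of the regulator list is not reported here.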

Additional observations from a re-analysis of the deposited data

Results flagged for a closer look

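In 63 groups of member values from 4 or 5 embryo libraries, 11 held a library far from the others by Dixon's test. Chance gives about 1 in 20 there for normally distributed values. The test was run on CPM without logs, so the chance rate for these values is not known. In 6 of the 11 (Aldoc, Eno2, Pdk2, Mpc1 and Pdk4 in both populations) all other libraries were at 0, so that rate does not apply. In GFP+ library E12, Pdk1 was at 253 CPM, Pdk4 at 146 CPM and Aldoc at 12.8 CPM. In GFP+ library C12, Pfkm was at 381 CPM and Mpc1 at 6.20 CPM, while Pkm was low at 3417 CPM. In GFP+ library B12, Pfkfb2 was at 57.1 CPM, Eno2 at 23.4 CPM and Pdk2 at 5.19 CPM. Among RFP+ libraries, Pdk4 was at 1.46 CPM in F12 and Pdhb at 312 CPM in G12.

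The population difference (log2 fold change, RFP+ over GFP+) differed between spheroids and embryos, by a test of the difference itself, for 5 members. In vitro minus in vivo, it was 1.90 for Slc2a1, 3.69 for Slc16a3, 2.19 for Eno3, 1.44 for Pkm and 1.37 for Ldha.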

How the results depend on the processing

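Leaving out 1 embryo library at a time gave 6 to 10 members called in vivo, 26 to 30 in the GFP+ and 16 to 19 in the RFP+ comparison of sources. A joint fit of 4 groups called 21 members in vivo, 13 with GFP+ and 8 with RFP+ higher, and an interaction term in that fit called 16 members where the main test called 5. Members with RFP+ higher in vivo numbered 3 with no filter on low counts, 2 with limma voom with weights per group, and 2 without GFP+ library B12 or without E12. The limma fit called 15 members between GFP+ sources, and there the log2 fold change of Pfkfb3 was 0.73 and of Pdk1 0.98, both reversed. Without GFP+ library E12, Pdk1 was at 1.11 and Pdk4 at 7.87, also reversed, and over all single libraries left out their lowest values were -1.37 and -1.09. The in vitro counts stayed within 1.5 times the main count under the alternatives run. The cause of these changes was not tested. No paired analysis was possible because the wells carry plate positions and the groups share no replicate number. Without division by exon length, 35 of 100 isoform shares moved by more than the spread between libraries. Depth limits what can be read from well C9, where 1 count was worth 73.3 CPM.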
